A study of Mus musculus with 24 samples.

Results

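The 9 mature miRNAs of the miR-17-miR-92a and miR-106b-miR-25 clusters were followed in the lungs of wild type and c-Raf transgenic mice. The members were taken by name from the array design, without their star forms (the strand of a miRNA hairpin that is usually less abundant). All members of both clusters were kept whatever their values, but earlier results of these data were known when the set was chosen. The members are mmu-miR-17, mmu-miR-18a, mmu-miR-19a, mmu-miR-20a, mmu-miR-19b and mmu-miR-92a of miR-17-miR-92a, and mmu-miR-106b, mmu-miR-93 and mmu-miR-25 of miR-106b-miR-25, which makes 9 of the 611 mouse miRNAs on the array. In SP-C/c-raf mice the surfactant protein C promoter directs an activated deletion mutant of the c-Raf-1 kinase to the alveolar epithelium, where lung adenocarcinomas form. Total RNA of microdissected lung cells from 1 animal per array was hybridised to 24 mouse miRNA arrays, in 4 groups of 6 animals aged 4 to 6 months: wild type males (M WT), wild type females (F WT), transgenic males (M c-Raf) and transgenic females (F c-Raf). The paper's methods describe microdissection, while its abstract speaks of RNA extracts from lungs. The labels give the transgenic tissue as lung adenocarcinoma. The paper instead describes a focus on precursor lesions of these tumours (atypical adenomatous hyperplasia). Values of c-Raf against WT are therefore not read as tumour against normal lung. Which cells were dissected is not given per array, so that less of a miRNA per cell and fewer cells that hold it cannot be told apart.

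Both clusters arise as single primary transcripts that are cut into several hairpins. The miR-17-miR-92a cluster is known as an oncogenic miRNA cluster that is driven by Myc and E2F factors and is high in the developing lung and in many lung cancers. The miR-106b-miR-25 cluster lies in an intron of Mcm7, a gene of the DNA replication helicase, and shares seeds with miR-17-miR-92a. The seed, bases 2 to 8 of a mature miRNA, is the stretch that pairs with target mRNAs, and known targets of these seeds include Cdkn1a and Bcl2l11.

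The mature sequences are shown because seed families cut across the clusters, and because some members differ at only a few bases. They are the RefSeq sequences on build GRCm38.p6, matched by name for all 9 members, with the seed in capitals. The array design is annotated on mm9, so these positions are not those of the array files. The first family, with 4 members, has 2 from each cluster:
mmu-miR-17: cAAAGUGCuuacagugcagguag
mmu-miR-20a: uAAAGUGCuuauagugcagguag
mmu-miR-106b: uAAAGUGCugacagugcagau
mmu-miR-93: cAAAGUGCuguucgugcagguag
The family of mmu-miR-92a and mmu-miR-25 has 2 members, 1 from each cluster:
mmu-miR-92a: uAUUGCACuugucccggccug
mmu-miR-25: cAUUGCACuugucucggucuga
The remaining 3 members belong to miR-17-miR-92a, and 2 of them share a seed:
mmu-miR-19a: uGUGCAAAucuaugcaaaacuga
mmu-miR-19b: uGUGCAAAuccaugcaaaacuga
mmu-miR-18a: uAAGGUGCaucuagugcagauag
With positions counted from 1 at the 5′ end, mmu-miR-17 and mmu-miR-20a differ at 2 positions, C1U and C12U. mmu-miR-19a and mmu-miR-19b differ at 1 position, U11C. The 6 mature miRNAs of miR-17-miR-92a lie on the plus strand at chr14:115043684-115044496 and the 3 of miR-106b-miR-25 on the minus strand at chr5:138165332-138165807. The same mature mmu-miR-19b and mmu-miR-92a are also made from hairpins on chromosome X, so their signal cannot be assigned to miR-17-miR-92a alone.

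The extraction software flagged each miRNA as detected or not on each array. Array brightness, the 75th percentile of spot intensity over the 27 mouse miRNAs detected on all 24 arrays, ran from 34.9 to 1212 intensity units. Between 38 and 179 mouse miRNAs were detected per array, and between 1 and 5 of the 9 members. M c-Raf replicate 6, M WT replicate 4 and F WT replicate 6 were the dimmest arrays. A group always sat at the same place on a slide, so slide place and group cannot be told apart. All 4 groups were on every slide and in every scan.

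Of the 9 members, 1 was detected on all arrays, 4 on some and 4 on none. mmu-miR-92a was detected on 24 of 24 arrays. mmu-miR-25, which shares its seed, was detected on 21 of 24. In the first seed family, mmu-miR-20a was detected on 14 arrays, mmu-miR-93 on 11 and mmu-miR-106b on 10. M WT lungs had the fewest detections of each of these 4 members: mmu-miR-25 was detected on 4 of 6 M WT arrays, and mmu-miR-20a, mmu-miR-106b and mmu-miR-93 on 1 of 6 each. Detection moved with brightness. The arrays on which mmu-miR-106b was detected had a median brightness of 390 units, against 190 for the others, and mmu-miR-93 gave 359 against 180 units. Brightness also differed by group. It ran from 52.8 to 231 units in M WT and from 34.9 to 1212 units in M c-Raf. In F WT it ran from 57.2 to 550 units and in F c-Raf from 86.9 to 359 units. M WT thus had the lowest maximum, and M WT replicate 4 is among the dimmest arrays. The numbers of detected arrays are given as a description, with no test between groups, and the part of brightness in them was not tested.

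**Figure D1:**
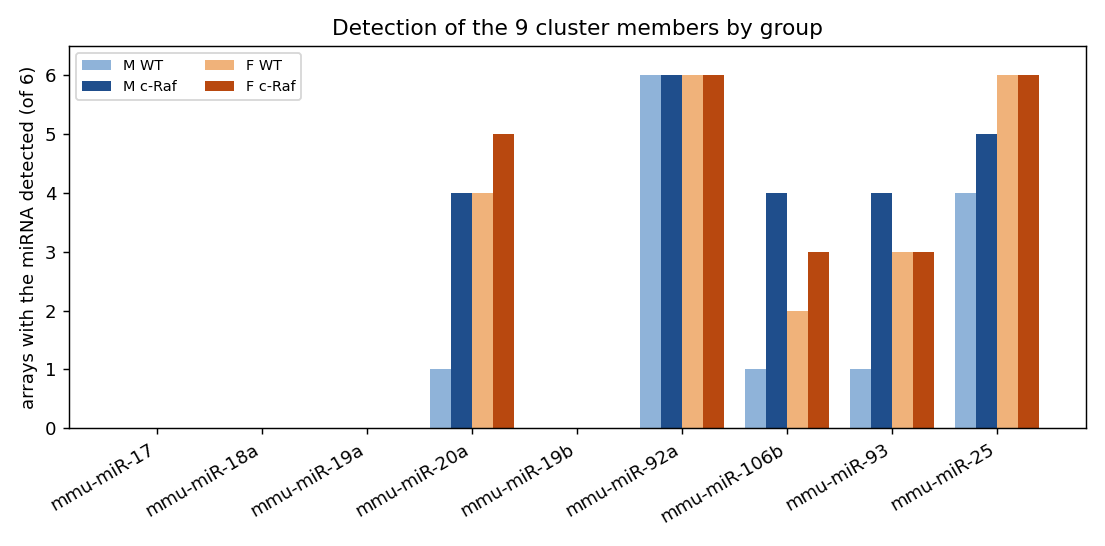
Number of arrays (of 6 per group, y axis) on which each of the 9 members (x axis) was detected, with 1 bar per group. mmu-miR-92a reaches 6 in every group, while mmu-miR-17, mmu-miR-18a, mmu-miR-19a and mmu-miR-19b have no bar because they were detected on 0 arrays.

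mmu-miR-17, mmu-miR-18a, mmu-miR-19a and mmu-miR-19b were not detectable at this signal over background. Median background-subtracted intensity of mmu-miR-17 lay below 0 on 24 of 24 arrays, from -4.95 to -0.455 units. None of its 480 spots, 20 on each array, was well above background. mmu-miR-20a reached 27.8 units and had 20.6% of its 480 spots well above background. mmu-miR-19b peaked at 3.53 units, with 0 spots well above background, mmu-miR-19a at 1.96 units with 1 such spot and mmu-miR-18a at 1.32 units with 2 such spots. Intensities of different probes have no common scale, so these values place each miRNA against background and do not rank the members. No fold is given for these 4 members, since both genotypes were at background.

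For the comparisons, each spot's intensity was divided by array brightness and raised to a floor of 0.01 where it was lower (log2 of -6.64), and a miRNA's value was the median of its 20 spots. The 120 mouse miRNAs detected on at least 6 of 24 arrays were tested with limma, a linear model that shares the spread among miRNAs. A miRNA was called at a Benjamini-Hochberg adjusted p under 0.05 over all 120. mmu-miR-20a, mmu-miR-92a, mmu-miR-106b, mmu-miR-93 and mmu-miR-25 passed this filter, which makes 5 of the 9 members.

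c-Raf against WT gave 1 call among the 5 tested members. By limma, 0 of 5 were called in males, where 2.5% of all tested miRNAs were, and 0 of 5 had an unadjusted p under 0.05, against 20.8% of all. In females 0 of 5 were called, against 5% of all, and 1 had an unadjusted p under 0.05, against 14.2% of all. With the slide, which is the replicate number, as a block, 1 of 5 was called in females, mmu-miR-106b. With the sexes joined 1 of 5 was called, mmu-miR-106b, against 18.3% of all, which is 22 of 120, and 2 of 5 had an unadjusted p under 0.05, against 31.7% of all. With 5 members tested, 1 call is close to that background share. The median difference of the 5 members over both sexes was 0.05 on the log2 scale, against 0.09 for all 120 miRNAs. By the study's own test on linear values, which also asks for a 3-fold ratio and a mean above the median of all miRNAs, 0 of 9 members passed, against 1.64% of all 611 miRNAs in males, 0.491% in females and 0.818% with the sexes joined.

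**Figure D2:**
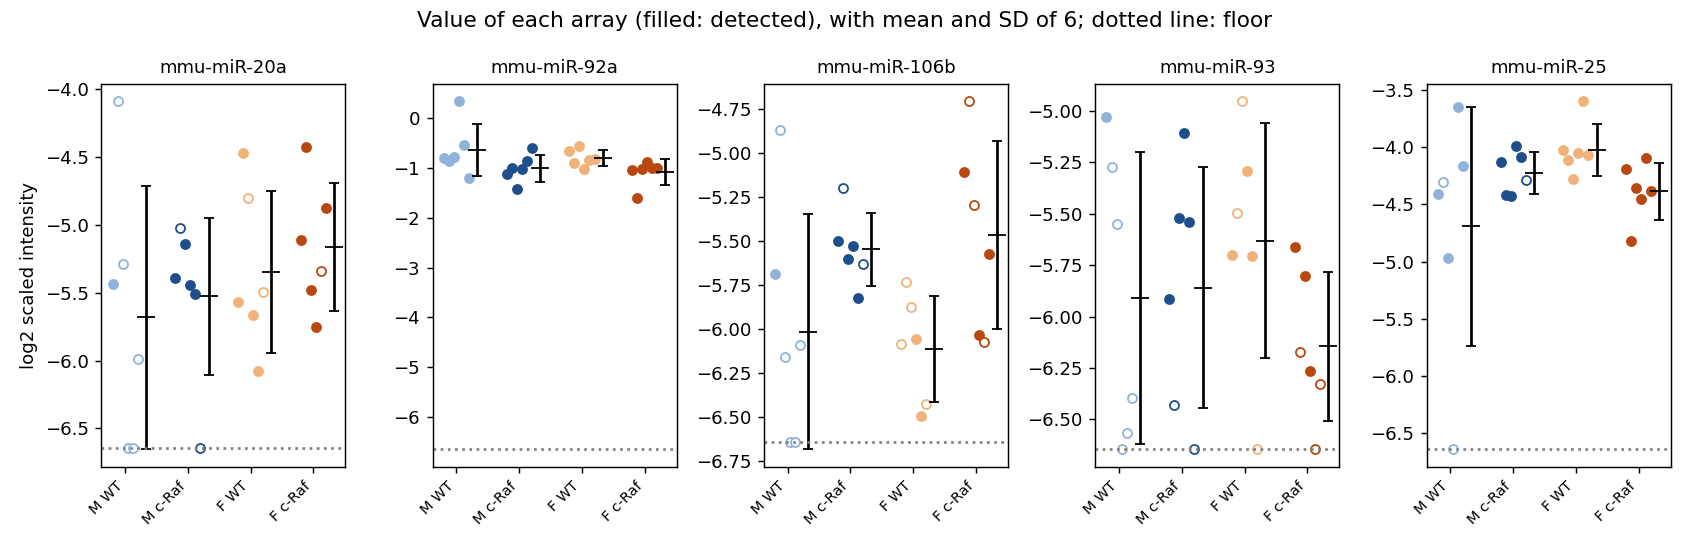
Log2 scaled intensity (y axis, a separate range in each panel) of every array for the 5 tested members by group, with the mean and SD of 6 arrays as black bars; filled points are arrays with the miRNA detected and the dotted line is the floor at -6.64. The c-Raf and WT points overlap in every panel, and many values of mmu-miR-20a, mmu-miR-106b and mmu-miR-93 are open points near the floor.

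mmu-miR-106b, the first hairpin of the miR-106b-miR-25 transcript, gave the only call. Its log2 scaled intensity ran from -6.64 (median -6.12) to -4.87 in M WT and from -5.83 (median -5.57) to -5.20 in M c-Raf. In F WT it ran from -6.50 (median -6.07) to -5.73 and in F c-Raf from -6.07 (median -5.44) to -4.71. The c-Raf median was the higher one in both sexes, but the groups overlapped, and 2 M WT arrays were at the floor. The difference was 0.47 in males (SE 0.27, limma adjusted p = 0.262) and 0.65 in females (SE 0.27, limma adjusted p = 0.223, or 0.0278 with the slide as a block). With the sexes joined it was 0.56 (SE 0.19, 1.47-fold, limma adjusted p = 0.0467). Summed over the sexes, c-Raf was higher on 6 of 6 slides, and within the 4 scans the difference was 0.57, 0.64, 0.58 and 0.46. The linear values gave a log2 ratio of 1.08, under the 3-fold asked for by the study's test.

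This call was borderline and was lost under many other ways of scaling, summarising and fitting. After the data had been seen, and with the adjusted p of mmu-miR-106b in view, 12 ways of scaling and summarising were run. The one reported, floor before median, follows the order of the study's methods. With the 9 definitions of a percentile, the reported one among them, the adjusted p was 0.0466 to 0.0467. With the other 3 it was lost: 0.059 with the floor set after the median, 0.0702 with the median of log2 values, and 0.0889 with the floor after the median and the percentile over miRNA medians. Of the planned settings the call held in 5 of 19, 1 of them identical to the reported fit, and was lost in 14. Of the 7 settings added after the data had been seen, percentile definitions aside, it held in 0. The difference itself was -0.52 with the floor at each array's lowest signal that stood well above background, -0.069 with normexp background correction and 0 with a floor of 0.1. Leaving out 1 array at a time kept the call in 6 of 24 fits and lost it in 18, with differences from 0.48 to 0.67 and adjusted p from 0.0065 to 0.0844. Without the 3 dimmest arrays the difference was 0.47 (adjusted p = 0.126). Fits with the slide as a block gave 0.56 again, with an adjusted p of 0.00388. mmu-miR-106b is therefore given as a value near the threshold and not as a settled change.

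**Figure D3:**
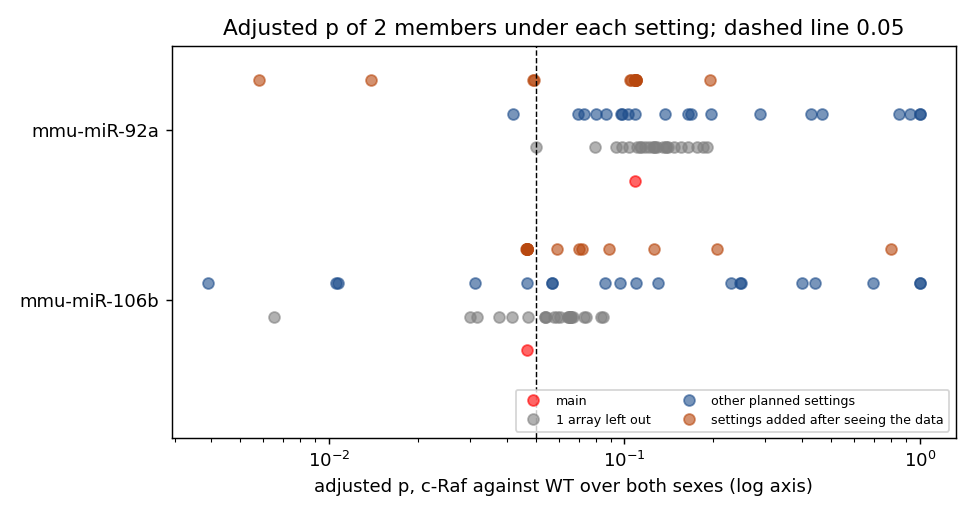
Adjusted p (x axis, log scale) of mmu-miR-106b and mmu-miR-92a for c-Raf minus WT with the sexes joined, 1 point per setting, with the reported value in red and the dashed line at 0.05. The points of both miRNAs lie on both sides of the line: mmu-miR-106b is at 0.0467 and mmu-miR-92a at 0.109 as reported.

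The 2 probes of each tested member, with 10 spots each, differed in brightness, so the median over 20 spots lay between them. The brighter probe of mmu-miR-106b had a median of 8.66 units and the dimmer one 0.704 units, near background. On the brighter probe alone, a summary added after seeing the data, mmu-miR-106b differed over both sexes by 0.12 (SE 0.25, limma adjusted p = 0.798). Its 2 probes each gave a difference of 0.12 over both sexes, smaller than the 0.56 of the joint median. In females the brighter probe gave -0.13 and the dimmer one 0.03, against 0.65 for the joint median. In males they gave 0.36 and 0.22, against 0.47. For mmu-miR-25 the brighter probe had a median of 26.7 units, against 0.487 units for the dimmer one.

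mmu-miR-92a, the last hairpin of miR-17-miR-92a and the member detected throughout, had lower values in c-Raf lungs on 5 of 6 slides in each sex, without passing the test. It ran from -1.21 (median -0.79) to 0.34 in M WT and from -1.41 (median -1.01) to -0.61 in M c-Raf. In F WT it ran from -1.03 (median -0.83) to -0.56 and in F c-Raf from -1.60 (median -1.01) to -0.87. M WT replicate 4, 1 of the 3 dimmest arrays, was the highest array. The difference was -0.36 in males (SE 0.20, limma adjusted p = 0.250), -0.29 in females (SE 0.20, adjusted p = 0.525) and -0.32 over both sexes (SE 0.14, adjusted p = 0.109). Without M WT replicate 4 the male difference was -0.17. On the brighter probe, which stood well above background in 100% of its spots, the difference over both sexes was -0.43 (SE 0.12, limma adjusted p = 0.0138). That summary was 1 of 4 that called mmu-miR-92a among 7 added after the data had been seen, percentile definitions aside. Of the 20 planned settings other than leaving out an array, 1, the mean over spots, called mmu-miR-92a (-0.42, adjusted p = 0.0419). Without scaling between arrays the difference was 0.16, in the other direction.

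mmu-miR-20a, a member of miR-17-miR-92a that carries the seed of mmu-miR-106b, did not pass in either sex. It ran from -6.64 (median -5.71) to -4.09 in M WT, from -6.64 (median -5.42) to -5.02 in M c-Raf, from -6.08 (median -5.53) to -4.47 in F WT and from -5.76 (median -5.22) to -4.42 in F c-Raf. The groups overlapped almost throughout. The difference was 0.16 in males and 0.18 in females (SE 0.38 each, limma adjusted p = 0.805 and 0.902), and the male value was -0.04 without M WT replicate 4. Over both sexes it was 0.17, with a 95% interval from -0.39 to 0.73.

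mmu-miR-93 and mmu-miR-25, the other miRNAs of the miR-106b-miR-25 transcript, were not called in any comparison. mmu-miR-93 ran from -6.64 to -5.03 in M WT and from -6.64 to -5.11 in M c-Raf, with medians of -5.97 and -5.73. In females it ran from -6.64 to -4.95 in F WT and from -6.64 to -5.66 in F c-Raf, with medians of -5.60 and -6.22. Each group had 1 array at the floor. Its difference was 0.05 in males, -0.51 in females and -0.23 with the sexes joined (limma adjusted p = 0.971, 0.465 and 0.531). Values of mmu-miR-93 moved with log2 brightness over the 24 arrays (r = 0.67, rho = 0.59), and its male difference was -0.35 with brightness in the fit.

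mmu-miR-25 ran from -6.64 (median -4.36) to -3.65 in M WT, from -4.43 (median -4.21) to -3.99 in M c-Raf, from -4.28 (median -4.06) to -3.59 in F WT and from -4.82 (median -4.37) to -4.10 in F c-Raf. The lowest value was the M WT replicate 4 array, at the floor. The difference was 0.47 in males (SE 0.32, limma adjusted p = 0.333) and 0.08 without that array. In females it was -0.36 (SE 0.32, limma adjusted p = 0.664), lower on 6 of 6 slides, and 0.10 on the brighter probe. Over both sexes it was 0.05, with a 95% interval from -0.41 to 0.52, and -0.14 without M WT replicate 4.

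**Figure D4:**
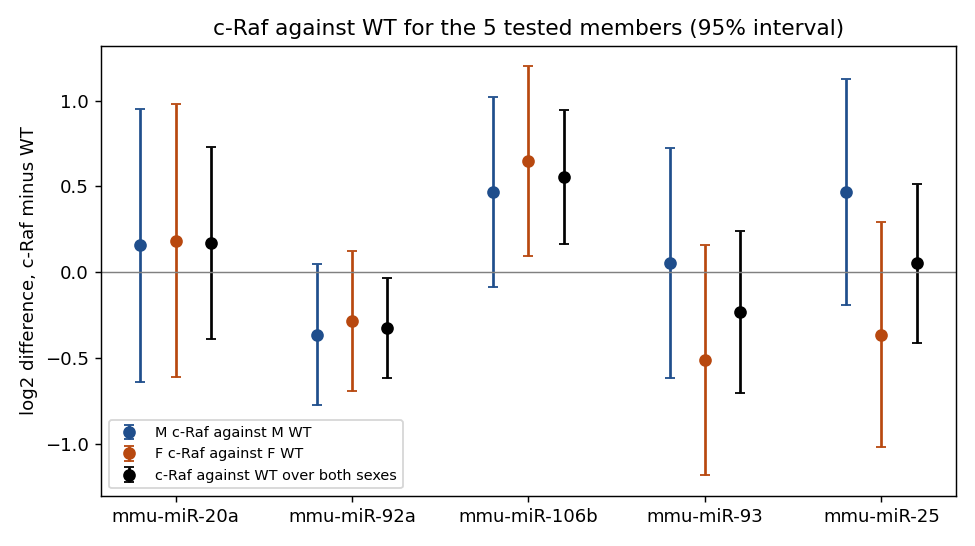
Log2 difference of c-Raf minus WT (y axis) with its 95% interval for the 5 tested members by sex and with the sexes joined. The intervals over both sexes exclude 0 before adjustment for mmu-miR-106b (0.17 to 0.95) and mmu-miR-92a (-0.61 to -0.04) and include it for the other 3.

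The c-Raf effect was not shown to differ between the sexes for any member. For the difference of the male and the female effect 0 of 5 members were called by limma, where 0% of all tested miRNAs were. At an unadjusted p under 0.05 there were 0 of the 5, against 4.17% of all. The largest value was that of mmu-miR-25 (0.83, SE 0.45, limma adjusted p = 0.872), which was 0.44 without M WT replicate 4. M WT against F WT gave 0 of 5, against 0% of all. The member with an unadjusted p under 0.05, where 9.17% of all miRNAs were, was mmu-miR-25 (-0.67, limma adjusted p = 0.496), at -0.28 without M WT replicate 4. M c-Raf against F c-Raf gave 0 of 5, against 2.5% of all, and 0 of 5 at an unadjusted p under 0.05, against 8.33% of all.

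The 5 tested members were also set against each other over the 24 arrays. Correlations were computed for all 10 pairs, with permutation tests adjusted by Benjamini-Hochberg over the 10. None of the 3 pairs within miR-106b-miR-25 passed. mmu-miR-106b and mmu-miR-93 gave r = 0.28 and rho = 0.30 (permutation p = 0.18 and 0.156), mmu-miR-93 and mmu-miR-25 gave r = 0.22 and rho = 0.09 (permutation p = 0.346 and 0.69), and mmu-miR-106b and mmu-miR-25 gave r = 0.05 and rho = -0.31 (permutation p = 0.824 and 0.136). On the brighter probes r was 0.24, 0.68 and 0.48 in that order. The pair within miR-17-miR-92a, mmu-miR-20a and mmu-miR-92a, gave r = -0.53 (permutation p = 0.0065, adjusted 0.0217) and rho = -0.38 (permutation p = 0.0684, adjusted 0.171). Its r was -0.63 in one of the scans that held 8 arrays and -0.05 in the other, and -0.59 without the 2 arrays farthest out. The highest r of the 10 was across the clusters, within the first seed family: mmu-miR-20a and mmu-miR-106b gave r = 0.70 (permutation p = 0.00024, adjusted 0.0024) and rho = 0.67 (permutation p = 0.00039, adjusted 0.0039). Leaving out the 2 arrays at the largest distance from the median mmu-miR-20a value gave 0.75, and r was 0.37 and 0.50 within those scans. mmu-miR-92a and mmu-miR-106b gave r = -0.60 (permutation p = 0.0019, adjusted 0.0095) and rho = -0.58 (permutation p = 0.00316, adjusted 0.0158), with r = -0.37 without the 2 arrays farthest out and -0.26 and -0.57 within those scans. On the brighter probes r weakened to -0.32 for mmu-miR-92a and mmu-miR-106b. It was -0.65 for mmu-miR-20a and mmu-miR-92a and 0.69 for mmu-miR-20a and mmu-miR-106b. Differences between the groups also enter an r over all 24 arrays. Within groups r was -0.48 for mmu-miR-92a and mmu-miR-106b. It was -0.52 for mmu-miR-20a and mmu-miR-92a and 0.80 for mmu-miR-20a and mmu-miR-106b. For the 3 pairs within miR-106b-miR-25, in the order above, it was 0.53, 0.16 and 0.07. No p is given for these values. All values of an array are divided by the same brightness, to which mmu-miR-92a contributes, and the part of this scaling in the correlations was not tested. Arrays of the same slide deviated together (r above 0.1 in 23 of 36 pairs of arrays), so the 24 arrays are not fully independent. The part of the slide in these permutation p values was not tested. Whether RNA of one member also binds the probes of another was not tested.

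Of the tested miRNAs outside the clusters, those with values most like the mean of mmu-miR-20a and mmu-miR-92a over the 24 arrays were mmu-miR-449a (r = 0.68, detected on 8 arrays), mmu-miR-98 (r = 0.65, on 16) and mmu-miR-30c-2* (r = 0.64, on 17). Since mmu-miR-20a and mmu-miR-92a themselves gave r = -0.53, their mean is not a profile that both share. Most like the mean of the 3 miR-106b-miR-25 members were mmu-miR-107 (r = 0.85), mmu-let-7i (r = 0.80) and mmu-miR-24 (r = 0.77). The pairs among those 3 members gave r = 0.28, 0.22 and 0.05, and none passed. Their mean is therefore not shown to be a profile that all 3 share. The miRNAs named for each cluster are the highest of 115 compared and are given as a description.

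Related miRNAs were detected on few arrays or none. The chromosome X hairpins of mmu-miR-19b and mmu-miR-92a lie in the paralogous miR-106a-miR-363 cluster. Of its 4 other miRNAs, 3 were matched by name on the array, and 1 of them, mmu-miR-20b, was detected, on 1 array. Star forms of 7 members were on the array, of which mmu-miR-17* and mmu-miR-18a* were detected on 2 arrays each. Besides the members, 6 miRNAs on the array carry a member's seed, mmu-miR-18b, mmu-miR-20b, mmu-miR-363, mmu-miR-92b, mmu-miR-32 and mmu-miR-367, and 1 of them was detected on any array. None of these related miRNAs was detected on enough arrays to be tested.

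Markers of several cell types differed by genotype in the same fit with the sexes joined. Of all 120 tested miRNAs, 18.3% were called in that fit. Of 5 tested epithelial miRNAs, 3 were called higher in c-Raf, by 0.73 to 0.75. They were mmu-miR-200a, mmu-miR-200b and mmu-miR-429 (limma adjusted p = 0.0217, 0.0482 and 0.018), so mmu-miR-200b was near the threshold. On M WT arrays mmu-miR-200a was detected on 0 of 6 and mmu-miR-429 on 1 of 6. The endothelial mmu-miR-126-3p was higher by 0.75 (limma adjusted p = 0.0217). The red cell miRNA mmu-miR-486 fell by 1.10 (limma adjusted p = 0.00213). The mesenchymal mmu-miR-214 fell by 0.86 (limma adjusted p = 1.53e-04). No other setting is given for these marker calls. The other tested miRNA of the smooth muscle and mesenchyme list, mmu-miR-199a-3p, went the other way and was not called (higher by 0.21, limma adjusted p = 0.293). None of 3 tested leukocyte and 2 tested striated muscle miRNAs was called. mmu-miR-144, another red cell miRNA, was detected on 0 arrays. mmu-miR-451, also of red cells, went the other way from mmu-miR-486 and was not called (higher by 0.38 in c-Raf, limma adjusted p = 0.389). The summed red cell list ran from -3.19 to -0.94 on the log2 scale in M WT, -3.29 to -2.44 in M c-Raf, -3.04 to -1.98 in F WT and -3.29 to -2.34 in F c-Raf. mmu-miR-486 had the highest mean of that list in every group (-2.29 in M WT, against -5.02 for mmu-miR-451), so the sum largely follows mmu-miR-486. mmu-miR-92a is also abundant in red cells, and the part of cell composition in its values was not tested.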

How the data were processed

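RNA of lung cells from 24 mice (microdissected, per the paper's methods), 100 ng each and Cy3-labelled, was measured on 1-colour arrays. The deposited scanner files hold intensity per spot, which the authors background-corrected with Agilent Feature Extraction (10.7.3.1 per the file headers), without scaling between arrays. The submitters' processing notes give version 8.1.3. The authors' deposited value table holds intensity scaled per array (363 miRNAs, 0 unmatched columns) and had none of the 9 members, so it gave no value here.

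Spot intensity was divided by array brightness, a 75th percentile taken over spots of the 27 always-detected mouse miRNAs. The floor of 0.01 was applied before the median over 20 spots, in the order of the study's methods, and log2 was taken. The floor understates changes of dim miRNAs, and values at it have no order. R 4.3.3 and limma 3.58.1 (lmFit, eBayes, two-sided) fitted 4 group means over 120 miRNAs with Benjamini-Hochberg adjustment. The fit was tested on simulated data drawn independently, without the floor, the probes or the slides, so that test does not cover values near the floor. Array number and signal over background limit precision.

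The members and lists were chosen with earlier results of these data known. Named are all 9 members, related miRNAs, markers, and the 3 miRNAs most correlated with each cluster. Replicate numbers equal slide numbers; arrays with the same number deviated together (r above 0.1) in 23 of 36 pairs.

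Alternatives covered scaling, background correction, spot summary, floor, filter, batch terms, the study's test and single arrays. Settings added after seeing the data were the floor after the median, the median of log2 values, percentiles over miRNA medians (alone and with the floor after the median), the other 8 percentile definitions, the brighter probe, the software's total signal per miRNA, and the 3 dimmest arrays left out.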

Additional observations from a re-analysis of the deposited data

Results flagged for a closer look

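In 3 of 20 groups of 6 arrays, 1 array lay far from the other 5 by Dixon's test, which flags about 5% of groups by chance. mmu-miR-20a was at -6.64 on the log2 scale, the floor, in M c-Raf replicate 6, the dimmest array, and its nearest neighbour was at -5.51. mmu-miR-92a was at -1.60 in F c-Raf replicate 2, with the nearest array at -1.04. mmu-miR-25 was at -3.59 in F WT replicate 5, with the nearest array at -4.02, which only just passed the limit.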

How the results depend on the processing

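Counts of called members stayed at 0 in males, for the difference between the sexes and in both comparisons of males with females, under every alternative run for them. In females the count was 0 except with the slide, which is the replicate number, as a replicate block: then it was 1, mmu-miR-106b (0.65, adjusted p = 0.0278). The same block with the sexes joined left 1 call, mmu-miR-106b (adjusted p = 0.00388), and changed no other call of a member. Same-numbered arrays correlated from -0.42 to 0.72.
With the sexes joined, the count fell from 1 to 0 with brightness taken over all non-control spots (3 of 120 miRNAs called), quantile normalization (12), no scaling (0), the median of the reference (13), a reference without mmu-miR-92a (20), normexp (0), outlier spots left out (17), floors of 0.1 (9), 0.001 (10) or at each array's lowest signal that stood well above background (1), the floor after the median (18), the median of log2 values (16), no filter (7 of 611), miRNAs detected on all arrays (3 of 27), array weights (22), brightness as a covariate (21), the 3 dimmest arrays left out (16), and by the study's test before and after Benjamini-Hochberg (5 and 0 of 611). Leaving out 1 array gave 0 to 1. With the mean over spots, the brighter probe, the percentile over miRNA medians, with or without the floor after the median, and the software's total signal the count stayed at 1, but the member called was mmu-miR-92a and not mmu-miR-106b.
Differences of c-Raf minus WT changed sign as follows. With brightness over all spots, mmu-miR-92a gave 0.33 in males and 0.082 with the sexes joined, and mmu-miR-93 gave 0.056 in females and 0.53 joined. Without scaling, mmu-miR-92a gave 0.90 in males and 0.16 joined, mmu-miR-93 gave 0.13 joined and mmu-miR-20a gave -0.11 in females. Quantile normalization gave mmu-miR-25 -0.16 joined. With normexp, males gave -0.83 for mmu-miR-20a, -0.85 for mmu-miR-106b, -0.88 for mmu-miR-93 and -0.65 for mmu-miR-25, females gave 0.010 for mmu-miR-92a, 0.63 for mmu-miR-93 and 0.54 for mmu-miR-25, and the sexes joined gave -0.064 for mmu-miR-20a, -0.069 for mmu-miR-106b and -0.054 for mmu-miR-25. With the floor at that lowest signal, males gave -0.98 for mmu-miR-20a, -1.0 for mmu-miR-106b, -0.93 for mmu-miR-93 and -0.28 for mmu-miR-25, females gave -0.057 for mmu-miR-20a and -0.035 for mmu-miR-106b, and joined values were -0.52 for mmu-miR-20a, -0.52 for mmu-miR-106b and -0.27 for mmu-miR-25. With outlier spots left out, mmu-miR-93 gave -0.26 and mmu-miR-25 -0.93 in males, mmu-miR-92a 0.22 in females, and mmu-miR-92a 0.045 and mmu-miR-25 -0.75 joined. The brighter probe gave -0.13 for mmu-miR-106b, 0.0034 for mmu-miR-93 and 0.098 for mmu-miR-25 in females, and 0.037 for mmu-miR-93 joined. In males mmu-miR-93 gave -0.058 with the median of log2 values, -0.0019 with the floor after the median and the percentile over medians, -0.16 with array weights and -0.35 with brightness as a covariate. mmu-miR-25 joined gave -0.20, -0.026, -0.025 and -0.013 under the same settings, -0.025 with the percentile over medians alone, -0.011 with a floor of 0.1 and -0.14 without the 3 dimmest arrays. The software's total signal gave 0.21 for mmu-miR-93 joined. By the study's test the log2 ratio of mmu-miR-92a was 0.77 in males and 0.32 joined, and that of mmu-miR-93 was 0.36 joined. Leaving out 1 array gave -0.036 to 0.48 for mmu-miR-20a in males, -0.099 to 0.23 for mmu-miR-93 in males and -0.14 to 0.16 for mmu-miR-25 joined. The cause of these changes was not tested. The deposited value table gave no value for any member and was not run as an alternative. Signal over background limits every member but mmu-miR-92a.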
